A study of Mus musculus with 6 samples.

Results

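Matrix metalloproteinases (MMPs), the ADAM and ADAMTS proteases and the tissue inhibitors of metalloproteinases (TIMPs) were followed in mesenchymal progenitor cells of mouse bone marrow, in 3 wild type and 3 Lama4-/- libraries. The members were taken from the genes of the deposited table with a symbol starting in Mmp, Adam or Adamts, with a number or the letters of the ADAMTS-like genes after it, or named Timp1 to Timp4. Symbols of pseudogenes and antisense transcripts were left out. Of 64 symbols considered, 59 had at least 10 counts summed over the 6 libraries and are described here, out of 25491 genes in the table. They were 17 MMP, 4 TIMP, 17 ADAM and 21 ADAMTS genes, the last including 5 ADAMTS-like genes. The other 5 symbols, Adam2, Adam3, Adam32, Adamts20 and Mmp1a, had between 1 and 9 counts in all. Exon bases are shared with another annotated gene in 16 of the 59, and the library kit does not mark strand.

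The mice were C57BL/6J, aged 14 weeks, and in both groups had received a sublethal dose of 7 Gy of radiation 6 weeks before the cells were sorted. Cells negative for CD45, TER119, CD31, CD44 and SCA1 and positive for CD51 were taken. Lama4-/- mice lack the laminin alpha 4 chain of basement membranes, and the wild type mice were age-matched. The study's design gives 3 mice of each genotype, but no label ties a library to a mouse. The p-values below therefore rest on differences among libraries of 1 group, part of which may be technical. The labels name 2 kinds of sequencer and do not say which library was read on which. Library totals ran from 6263830 to 15663957 counts. Lama4 had 607, 236 and 438 counts in the wild type libraries and 0 in each Lama4-/- library. All 10 progenitor markers, among them Cxcl12, Lepr, Pdgfra and Col1a1, were counted in every library, whereas the endothelial gene Pecam1 was at 2.05 CPM or less in every library (CPM are counts scaled to a common library size). Of these 10 markers, Lepr, Pdgfra, Pdgfrb, Kitl and Itgav were lower in all Lama4-/- libraries than in all wild type libraries, at 0.355, 0.527, 0.407, 0.429 and 0.52 times the wild type mean, and the other 5 overlapped. Itgav encodes CD51, used in the sort. Over all tested genes, 12% were lower in Lama4-/- without overlap. The log2 fold changes of Lepr, Pdgfra, Pdgfrb, Kitl and Itgav were -1.50, -0.92, -1.30, -1.22 and -0.94. With the trend of fold change with transcript length (described below) removed, they were -0.95, -0.13, -0.75, -0.64 and -0.12. Summed erythroid markers ran from 252 to 1673 CPM in wild type and 1352 to 3864 CPM in Lama4-/-. The part of these differences in the members' values was not tested. Cd44 was counted at between 53.2 and 152 CPM although the sort was negative for its protein. Summed cartilage markers reached 65751 to 147017 CPM per library, so transcripts of chondrocytes were abundant in the sorted cells. In sorted bulk samples, fewer cells of a type and less RNA per cell cannot be told apart.

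MMPs and ADAMTS proteases are zinc enzymes that cut the extracellular matrix: collagenases and gelatinases cut collagens, aggrecanases cut cartilage proteoglycans, and procollagen N-proteinases trim newly made collagen. ADAM proteases sit in the membrane and release the outer parts of receptors, cytokines and adhesion molecules. TIMPs bind and block the active sites of these enzymes. In bone marrow stroma and at the growth plate these proteases remodel bone and cartilage matrix, and membrane forms of niche factors such as stem cell factor are released by shedding.

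With edgeR's quasi-likelihood test and Benjamini-Hochberg adjustment, 0 of the 49 tested members had an adjusted p under 0.05, beside 0.00691% of all 14465 tested genes (Lama4 alone). At an unadjusted p under 0.05 there were 4 members: Adamts5, Adamts1 and Adamtsl1 were lower in Lama4-/- and Mmp23 was higher. That is 6.12% lower and 2.04% higher, beside 8.34% and 4.45% of all tested genes, so the families held no larger share of such genes than the whole table. Groups that did not overlap were found for 5 members on the lower side (10.2%, beside 12% of all tested genes) and 3 on the higher (6.12%, beside 10.3%). A negative log2 fold change was seen in 36 of the 49 members (73.5%), beside 52.0% of all tested genes, and the median was -0.40 beside -0.04 over all. DESeq2 called 3 members of 54 with an adjusted p, Adamts5 and Adamtsl1 lower and Mmp23 higher, where it called 3.56% of all genes lower and 1.08% higher. In the authors' deposited table, of 33 members with an adjusted p, Adamts5 is listed as lower and Mmp23 as higher at an adjusted p under 0.05, beside 4.75% lower and 1.88% higher of all genes with one. Limma voom called 0 members after adjustment and had 5 lower (10.2%, beside 10.8% of all genes) and 2 higher (4.08%, beside 5.43%) at an unadjusted p under 0.05. With upper-quartile scaling the edgeR counts at an unadjusted p under 0.05 were 3 lower (6.12%, beside 6.69% of all genes) and 2 higher (4.08%, beside 6.83%). Without Lama4-/- replicate 2 the lower count was 8 of 50 (beside 11.5% of all genes). The higher count was 2 of 50 without wild type replicate 2 (beside 4.6%) and 3 of 49 without wild type replicate 3 (beside 2.6%).

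Fold changes in this series followed transcript length, and most members are long. The longest annotated transcript was above the median of all tested genes, 3124 bases, in 42 of the 49 tested members, and the median over the members was 4722 bases. Across the 49 members, log2 fold change and length had a Spearman correlation of -0.43 and across all tested genes one of -0.46, a description across genes that share the same 6 libraries. With the length trend removed from each library, the members' median went from -0.40 to -0.08, and 26 of 49 were negative beside 48.6% of all genes. At an unadjusted p under 0.05 there was then 1 lower member, Adamtsl1 (2.04%, beside 3.16% of all genes), and 2 higher, Mmp23 and Adamts10 (4.08%, beside 4.95%). For the members described most closely below, values with the trend removed stand beside the main ones.

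**Figure D1:**
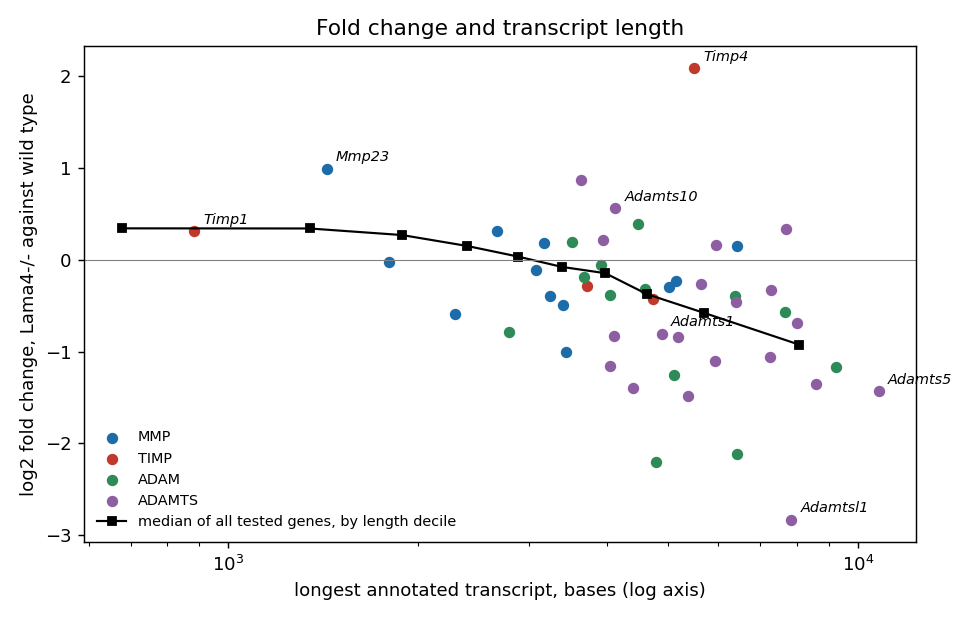
Log2 fold change of Lama4-/- against wild type (vertical axis) against the longest annotated transcript in bases (horizontal log axis) for the 49 tested members, coloured by family, with the median of all tested genes in each length decile as black squares. The decile medians go from 0.34 at 678 bases to -0.92 at 8068 bases, Adamts5 and Adamtsl1 are among the long members, and Mmp23 and Timp1 are short.

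Levels between genes are compared as CPM per kilobase of the longest transcript. The highest level per length was that of Timp1, at 417 in wild type and 516 in Lama4-/-, followed by Mmp2 (362 and 335) and Mmp13 (291 and 361). Timp2 had 214 and 175, Mmp23 83 and 165, and Mmp14 111 and 83.9 CPM per kilobase. Adamts1 (92.1 and 52.7), Timp3 and Adamts2 came next, and the most expressed ADAM gene per length was Adam15, at 17.5 and 16.8. On the CPM scale Mmp2, Mmp13, Timp2, Adamts2 and Timp1 together took between 60.1% and 67.3% of the counts of all members in each library. At the other end, 12 members had a mean under 1 CPM. Of these, 10 did not pass the edgeR filter on low counts, and none of the 10 had more than 69 counts in all.

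**Figure D2:**
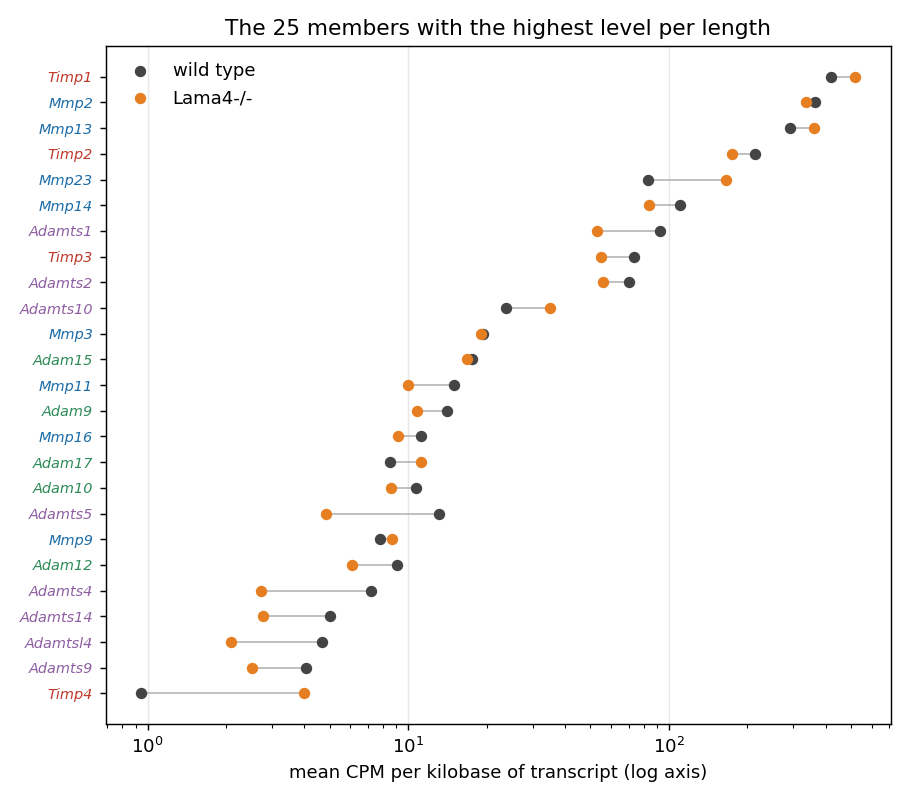
Mean CPM per kilobase of transcript (horizontal log axis) in wild type (dark) and Lama4-/- (orange) for the 25 members with the highest level, with symbols coloured by family. Timp1, Mmp2 and Mmp13 lead in both genotypes. The widest gap on this axis is that of Timp4 (0.947 and 3.99), followed by Adamts5, Adamts4, Adamtsl4 and Mmp23.

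The genes Mmp13, Mmp12, Mmp3 and Mmp10 lie in that order on the plus strand of chromosome 9 between 7272514 and 7510240 (GRCm38). Their promoters are shown because each gene has a window with a pair of motifs that no other matched member had together. Of the 59 members, 37 matched the RefSeq promoter table (GRCm38.p6), with 41 windows that each span a start site. The AP-1 motif TGANTCA, the TATA letters TATAAA and the RUNX letters TGTGGT were searched on both strands, and no matches overlap in the stretches printed. AP-1 letters stood in 6 of the 41 member windows (14.6%, beside 7.81% of all 32851 windows), TATA letters in 7 (17.1%, beside 13.6%) and RUNX letters in 6 (14.6%, beside 16.8%). AP-1 and TATA letters stood together in 4 member genes, the 4 of this cluster. Mmp12 has 2 windows in the table: the one at its annotated gene start, 7344147 to 7344446, holds neither, and the one shown lies downstream of it, at 7347124 to 7347423. The 110 bases before the start site are printed 5′ to 3′, with AP-1 and TATA letters in capitals, beside those of Adamts1 and Mmp23.
Mmp13: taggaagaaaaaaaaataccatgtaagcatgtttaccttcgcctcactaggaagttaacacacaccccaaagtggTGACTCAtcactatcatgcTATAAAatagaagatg
Mmp3: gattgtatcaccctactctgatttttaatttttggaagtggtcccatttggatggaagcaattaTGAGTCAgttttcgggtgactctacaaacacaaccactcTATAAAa
Mmp10: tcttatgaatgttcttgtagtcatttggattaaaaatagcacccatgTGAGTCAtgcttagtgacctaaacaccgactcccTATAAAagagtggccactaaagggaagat
Mmp12: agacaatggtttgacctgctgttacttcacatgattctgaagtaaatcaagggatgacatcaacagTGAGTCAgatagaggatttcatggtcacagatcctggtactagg
Adamts1: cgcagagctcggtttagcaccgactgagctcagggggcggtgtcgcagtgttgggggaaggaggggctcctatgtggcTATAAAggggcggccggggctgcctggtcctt
Mmp23: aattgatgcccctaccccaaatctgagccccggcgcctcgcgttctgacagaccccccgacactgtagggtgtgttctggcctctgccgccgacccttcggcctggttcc

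The stretches are chr9:7272404-7272513, plus strand (Mmp13), chr9:7445712-7445821, plus strand (Mmp3), chr9:7502232-7502341, plus strand (Mmp10), chr9:7347264-7347373, plus strand (Mmp12), chr16:85803114-85803223, minus strand (Adamts1) and chr4:155653385-155653494, minus strand (Mmp23). The AP-1 letters began 35 bases before the start site in Mmp13, 46 in Mmp3, 63 in Mmp10 and 44 in Mmp12. The TATA letters began 16, 7 and 29 bases before it in the first 3 genes and at position 5 after it in Mmp12, outside the printed stretch. Adamts1 held TATA letters 32 bases before the start, and Mmp23 held RUNX letters 177 bases before it, also outside the stretch. These are letter matches and show no binding.

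Levels within the cluster were far apart. Mmp13, the collagenase of bone and growth plate cartilage in the mouse, was at 581, 962 and 789 CPM in wild type and 928, 769 and 1200.5 CPM in Lama4-/-, given here and below in the order of replicates 1, 2 and 3. The groups overlapped, with a log2 fold change of 0.31 (SE 0.26; edgeR unadjusted p = 0.26, adjusted p = 0.679) and a value of 0.25 with the length trend removed. The other 7 osteoblast markers summed to 6370 to 9604 CPM in wild type and 6891 to 14091 CPM in Lama4-/-, and their part in the Mmp13 values was not tested. Mmp3, stromelysin 1, had 19.2 CPM per kilobase over all libraries beside 326 for Mmp13. It was at 25.1, 38 and 41.7 CPM in wild type and 32.4, 49.2 and 21.3 CPM in Lama4-/-, with overlapping groups (log2 fold change -0.025, and -0.28 with the length trend removed). Mmp10, stromelysin 2, had 19 counts, all in wild type replicates 1 and 2. Mmp12, the macrophage elastase, had 69 counts, all in wild type replicate 3, the library with the highest level of the macrophage marker Adgre1 (8.18 CPM, beside 0.514 or less in the other 5). The 8 macrophage markers outside these families, Adgre1 included, together ran from 23.1 to 46.4 CPM in wild type and 61.6 to 111 CPM in Lama4-/-, and their part was not tested. Mmp10 and Mmp12 did not pass the filter on low counts.

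The gelatinases cut denatured collagen and type IV collagen of basement membranes. Mmp2 was at 880.3, 1316 and 1146 CPM in wild type and 1059, 894 and 1145 CPM in Lama4-/-, with a log2 fold change of -0.11 (SE 0.21), -0.082 with the length trend removed, and overlapping groups. Mmp9, which neutrophils and osteoclasts make in quantity, was at 11.3, 53.8 and 8.95 CPM in wild type and 28, 41.1 and 13.7 CPM in Lama4-/-. Its spread within a genotype was larger than the difference between them, wild type replicate 2 holding the highest value. The other 9 neutrophil markers summed to 27.4 CPM in that library, the lowest of the 6, and to 717 and 669 CPM in Lama4-/- replicates 1 and 2, against 80.5 to 109 in the remaining 3. All 9 were counted in at least 1 library of each genotype. The osteoclast fusion genes Dcstamp and Ocstamp were at 4.09 CPM or less in every library. The 6 osteoclast markers counted summed to 347 to 799 CPM in wild type and 219 to 381 CPM in Lama4-/-, with most of each sum from Nfatc1 and the highest sum in wild type replicate 2. The part of these cells in the Mmp9 counts was not tested.

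Membrane-type MMPs act at the cell surface, and Mmp14 encodes the form that cuts fibrillar collagen and activates pro-MMP2. Mmp14 (chromosome 14, 54431612 to 54445364, plus strand) was at 339, 355 and 379 CPM in wild type and 262, 313 and 239 CPM in Lama4-/-. Every wild type library lay above every Lama4-/- library, at 358 ± 20.05 against 272 ± 38 CPM (SD, n = 3), with a log2 fold change of -0.40 (SE 0.18; edgeR unadjusted p = 0.0546, adjusted p = 0.401). The value was -0.35 with the length trend removed. Mmp16 was at 48.2, 50.2 and 70.3 CPM in wild type and 52, 34.4 and 50.4 CPM in Lama4-/-, and Mmp17 at 13.6 ± 10.1 against 14.9 ± 5.92 CPM, both with overlapping groups. Mmp15 averaged 1.39 CPM in wild type and 1.19 in Lama4-/-. Mmp24 and Mmp25 were not tested. Mmp25, a leukocyte form, had 22, 3 and 4 counts in wild type and 0 in each Lama4-/- library. Mmp24 had 1 count in wild type, and 35 and 9 counts in Lama4-/- replicates 2 and 3.

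Mmp23 was the member with the smallest p. It encodes an unusual metalloproteinase held in the membrane by its N-terminal end and lies on chromosome 4, 155650655 to 155653384, minus strand. Its level was 147, 123 and 86.8 CPM in wild type and 230.1, 198 and 280.5 CPM in Lama4-/-. All 3 Lama4-/- libraries stood above all 3 wild type libraries, and the means were 119 ± 30.5 against 236 ± 41.4 CPM (SD, n = 3). The difference had a log2 fold change of 0.99 (SE 0.25; edgeR unadjusted p = 0.00471, adjusted p = 0.238), and DESeq2 called it (adjusted p = 0.0152). The authors' deposited table lists a shrunken log2 fold change of 0.94 and an adjusted p of 0.0124. With the length trend removed the log2 fold change was 0.70 (edgeR unadjusted p = 0.0186, adjusted p = 0.543), and with any library left out it ran from 0.81 to 1.19. The transcript is short, at 1434 bases, and the length decile of all tested genes with a median of 1346 bases had a median log2 fold change of 0.34.

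Of the other MMP genes, stromelysin 3 (Mmp11), which stromal cells make around tumours and in involuting tissue, was at 31.8, 32.4 and 39.1 CPM in wild type and 33.4, 26.2 and 8.79 CPM in Lama4-/-, with Lama4-/- replicates 2 and 3 below the wild type range and replicate 1 inside it. Mmp19 and Mmp28 were at 4.79 ± 5.82 against 3.37 ± 2.27 CPM and 2.73 ± 0.817 against 1.35 ± 1.44 CPM. Mmp21 had 10 counts, all in wild type replicate 3. Over the 12 tested MMP genes the median log2 fold change was -0.17, and 0.049 with the length trend removed. It was 0.035 without wild type replicate 2.

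**Figure D3:**
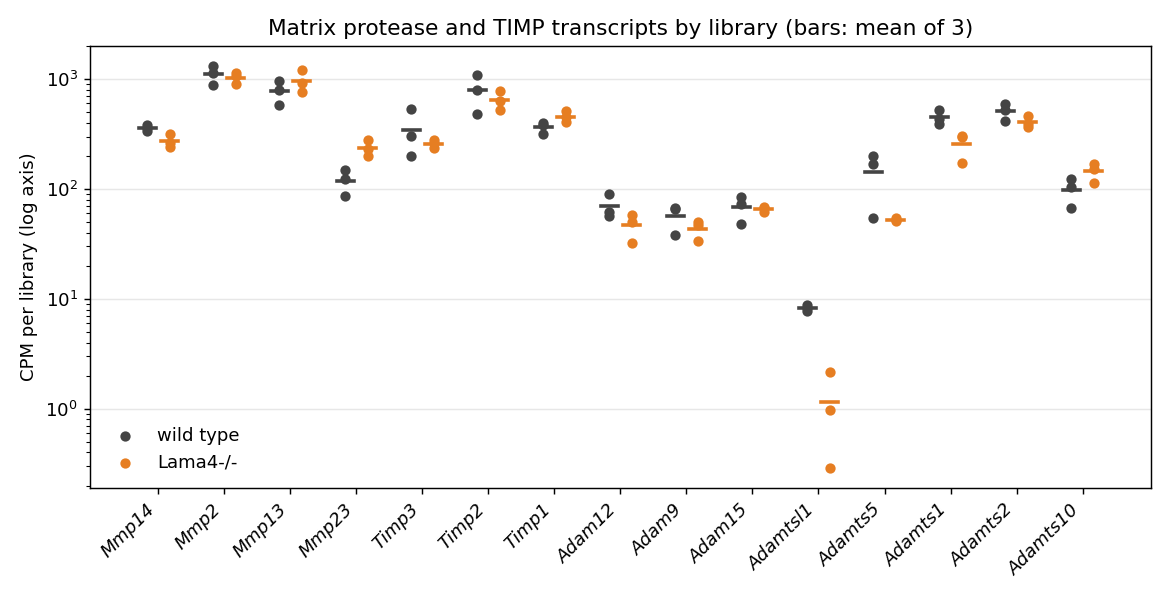
CPM in each library (vertical log axis) for 15 members, wild type in dark points and Lama4-/- in orange, with bars at the mean of 3 libraries. The groups of Mmp14, Adamtsl1, Adamts5 and Adamts1 on the lower side and of Mmp23 and Timp1 on the higher do not overlap, and wild type replicate 2 of Adamts5 lies beside the Lama4-/- values.

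Among the inhibitors, Timp1 and Timp4 had groups that did not overlap, both higher in Lama4-/-, and neither had an unadjusted p under 0.05. Timp1, a secreted inhibitor of most MMPs, was at 400.3, 318 and 385 CPM in wild type and 405, 508 and 455 CPM in Lama4-/-. The lowest Lama4-/- value lay just above the highest wild type value, and the log2 fold change of 0.31 (SE 0.18; edgeR unadjusted p = 0.128, adjusted p = 0.532) became -0.029 with the length trend removed. Its transcript has 883 bases. Timp4 (chromosome 6, 115241892 to 115252205, minus strand), the least expressed inhibitor, was at 8.6, 7.02 and 0 CPM in wild type and 27.1, 21.8 and 16.8 CPM in Lama4-/-. Its log2 fold change of 2.08 (SE 1.22; edgeR unadjusted p = 0.129, adjusted p = 0.533) became 2.63 with the length trend removed (edgeR unadjusted p = 0.0701). Timp4 shares exon bases with Syn2 on the opposite strand, and Syn2 was at 1.71 CPM or less in every library.

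Timp2, which blocks MMP2 and also takes part in its activation by MMP14, was at 483, 1099 and 799 CPM in wild type and 637, 784 and 527 CPM in Lama4-/-. Timp3, the inhibitor bound to matrix that also blocks ADAM17 and the aggrecanases, was at 201, 535 and 306 CPM in wild type and 236, 277 and 263 CPM in Lama4-/-. For both, wild type replicate 2 held the highest value of the 6 libraries and wild type replicate 1 the lowest, so the wild type range enclosed all Lama4-/- values. The log2 fold changes of -0.29 and -0.42 were -0.12 and 0.0012 with the length trend removed, and the main values went to 0.021 and 0.0303 without wild type replicate 2. The summed TIMP level per summed MMP level was 0.524, 0.659 and 0.578 in wild type and 0.494, 0.675 and 0.424 in Lama4-/-, with overlapping groups.

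The ADAM genes were expressed at lower levels than the abundant MMP genes and none had an unadjusted p under 0.05 or groups that did not overlap. The catalytic sheddases were led by Adam15, at 47.8, 85.5 and 72.5 CPM in wild type and 66.7, 61.2 and 69.2 CPM in Lama4-/-. Adam12 (meltrin alpha) was at 61.6, 57.2 and 90.1 CPM in wild type and 58.3, 32.6 and 49.6 CPM in Lama4-/-. Adam9 was at 38.4, 67.8 and 65.2 CPM in wild type and 50.1, 47.1 and 33.8 CPM in Lama4-/-, and in all 3 genes the groups overlapped. Adam12, the longest of these at 7675 bases, had a log2 fold change of -0.57 (SE 0.30; edgeR unadjusted p = 0.0951, adjusted p = 0.483) and a value of 0.33 with the length trend removed, which turned its sign. Adam10, the sheddase of Notch receptors, was at 47.3, 56.3 and 43.8 CPM in wild type and 59.2, 39 and 19.9 CPM in Lama4-/-. Adam17, which releases TNF and ligands of the EGF receptor, was at 27.3, 53.8 and 33.5 CPM in wild type and 39.9, 43 and 66.5 CPM in Lama4-/-, with the highest value in Lama4-/- replicate 3, the library in which Adam10 was lowest. Adam17 shares exon bases with Iah1 on the opposite strand. Iah1 was at 30.4, 22.6 and 13.3 CPM in wild type and 30.7, 26.7 and 42.8 CPM in Lama4-/-. The part of Iah1 in the Adam17 values was not tested. The log2 fold changes of Adam10 and Adam17 were -0.32 (SE 0.39) and 0.39 (SE 0.34), and 0.048 and 0.76 with the length trend removed.

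Adam19 was at 9.76 ± 4.09 against 7.4 ± 2.99 CPM (SD, n = 3). Adam8, a leukocyte and osteoclast form, was at 3.81, 1.03 and 7.41 CPM in wild type and 7.44, 3.31 and 0 CPM in Lama4-/-, highest in wild type replicate 3 and Lama4-/- replicate 1. The 9 neutrophil markers outside these families summed to 97.4, 27.4 and 109 CPM in wild type and 717, 669 and 80.5 CPM in Lama4-/-. Their part in the Adam8 values was not tested. Adam28 and Adam33 were not tested, with 28 and 60 counts in all. The ADAM proteins without protease activity, Adam11, Adam22 and Adam23, are known from neurons as partners of secreted LGI proteins. All 3 were counted in every wild type library and each was at 0 in at least 1 Lama4-/- library. Adam11 was at 6.36, 6.16 and 4.63 CPM in wild type and 0, 0 and 7.19 CPM in Lama4-/-, highest in Lama4-/- replicate 3. Adam22 was at 5.31, 13.4 and 15.3 CPM in wild type and 8.04, 6.99 and 0 CPM in Lama4-/-. Adam23 was at 1.35, 4.11 and 2.47 CPM in wild type and 0, 1.81 and 0 CPM in Lama4-/-. The log2 fold changes of these 3 genes, -1.25, -1.17 and -2.12, had standard errors from 1.33 to 1.89. They were -0.68, -0.24 and -1.53 with the length trend removed. The genes of a family known chiefly from testis, Adam1a, Adam1b, Adam4, Adam5 and Adam30, stayed at or below 3.56 CPM in every library. The median over 13 tested ADAM genes was -0.40, and -0.10 with the length trend removed. It was -0.74 without Lama4-/- replicate 1 and -0.62 without wild type replicate 2.

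Counts of 0 were most frequent in Lama4-/- replicates 1 and 3. In wild type, 3, 6 and 5 of the 59 members had 0 counts, and in Lama4-/- 16, 8 and 18. Among the 49 tested members, 0, 0 and 2 were at 0 in wild type and 8, 1 and 9 in Lama4-/-. Over all tested genes the share at 0 was 1.11%, 1.19% and 3.1% in wild type and 6.42%, 1.84% and 8.41% in Lama4-/-. The totals of Lama4-/- replicates 1 and 3, 15663957 and 14068457 counts, were the largest of the 6. The part of this in the fold changes of weak members was not tested. Only 34 of the 59 members were counted in every library.

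Of the 20 tested ADAMTS genes, 3 were lower (15%, beside 8.34% of all tested genes) and 0 higher (beside 4.45%) at an unadjusted p under 0.05. The median log2 fold change was -0.82, with 15 of 20 negative (75%, beside 52.0% of all tested genes), and -0.22 with the length trend removed. With that trend removed, 1 was lower (5%, beside 3.16% of all genes) and 1 higher (5%, beside 4.95%). Of the 20, 11 were then negative, beside 48.6% of all genes. The ADAMTS genes had the longest transcripts of the 4 families, with a median of 5785 bases. The median was -0.50 without wild type replicate 2 and -0.83 over 21 genes with DESeq2.

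Proteoglycanases cut aggrecan and versican. Adamts5, the main aggrecanase of mouse cartilage, lies on chromosome 16, 85856173 to 85901828, minus strand, and was at 169, 54.3 and 201 CPM in wild type and 52.2, 50.8 and 54.2 CPM in Lama4-/-. The Lama4-/- values were close to each other, and wild type replicate 2 exceeded the highest of them only in the decimals, while the other wild type libraries were over 3 times as high. The means were 141 ± 77.1 against 52.4 ± 1.75 CPM (SD, n = 3), with a log2 fold change of -1.43 (SE 0.44; edgeR unadjusted p = 0.0126, adjusted p = 0.273). DESeq2 called it (adjusted p = 0.0394), and the authors' deposited table lists a shrunken log2 fold change of -1.22 with an adjusted p of 0.0316. With the length trend removed the log2 fold change was -0.20 (edgeR unadjusted p = 0.538). At 10791 bases its transcript is the longest of all tested members. Without wild type replicate 3 the log2 fold change was -1.09 (edgeR unadjusted p = 0.0525) and without wild type replicate 2 it was -1.82. Aggrecan (Acan) itself was at 3167, 2441 and 3719.5 CPM in wild type and 812, 1579 and 971 CPM in Lama4-/-. The 8 cartilage markers, Acan included, summed to 94157 to 147017 CPM in wild type and 65751 to 124202 CPM in Lama4-/-, 67.7% to 75.5% of each sum being Col2a1. Sox9, Col9a1 and Col11a1 were, like Acan, lower in Lama4-/- without overlap, at 0.508, 0.598 and 0.386 times the wild type mean. Col2a1, Matn3, Comp and Chad overlapped. Over all tested genes, 12% were lower without overlap. The log2 fold changes of Acan, Sox9, Col9a1 and Col11a1 were -1.47, -0.98, -0.74 and -1.37. They were -0.63, -0.71, -0.57 and -0.50 with the length trend removed. The part of cartilage cells in the Adamts5 values was not tested.

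Adamts1, which cuts aggrecan and versican and is induced by hormones and inflammation, lies 53060 bases from Adamts5 on the same strand of chromosome 16. It was the most abundant proteoglycanase, taking 58% to 82% of their summed CPM per library, at 388, 527 and 435 CPM in wild type and 295, 173 and 304 CPM in Lama4-/-. All Lama4-/- libraries were below all wild type libraries, at 450.1 ± 70.7 against 258 ± 73.2 CPM (SD, n = 3). The log2 fold change of -0.80 (SE 0.26; edgeR unadjusted p = 0.0157, adjusted p = 0.29) was -0.34 with the length trend removed (edgeR unadjusted p = 0.258), and DESeq2 did not call it (adjusted p = 0.0888). Adamts15 was at 10.5, 12.8 and 12.5 CPM in wild type and 6.9, 6.99 and 2.69 CPM in Lama4-/-, also without overlap, with a log2 fold change of -1.11 (SE 0.53; edgeR unadjusted p = 0.0733, adjusted p = 0.438) and a value of -0.49 with the length trend removed. Its neighbour Adamts8, 20110 bases away on chromosome 9, was at 2.02, 2.91 and 10.3 CPM in wild type and 19.3, 8.65 and 0 CPM in Lama4-/-, highest in Lama4-/- replicate 1 and at 0 in replicate 3.

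Adamts4, the other aggrecanase induced by cytokines, was at 10.7, 25.9 and 57.9 CPM in wild type and 0.78, 10.8 and 24.5 CPM in Lama4-/-, and Adamts9 at 44.3, 19.7 and 33.8 CPM in wild type and 21.1, 12.9 and 26.7 CPM in Lama4-/-, both with overlapping groups. The Adamts4 values are uncertain, since it is among the members that share exon bases. Summed over the 6 proteoglycanases, the level was 624, 642.5 and 751 CPM in wild type and 395, 263 and 412.5 CPM in Lama4-/-. The lowest wild type sum stood above the highest Lama4-/- sum, a description of genes partly chosen with these values known. The sums of the membrane-type MMPs and of the ADAM genes without protease activity were also lower in Lama4-/- without overlap. The sums are not adjusted for transcript length. The median log2 fold change of the 6 proteoglycanases was -0.96, and -0.27 with the length trend removed.

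**Figure D4:**
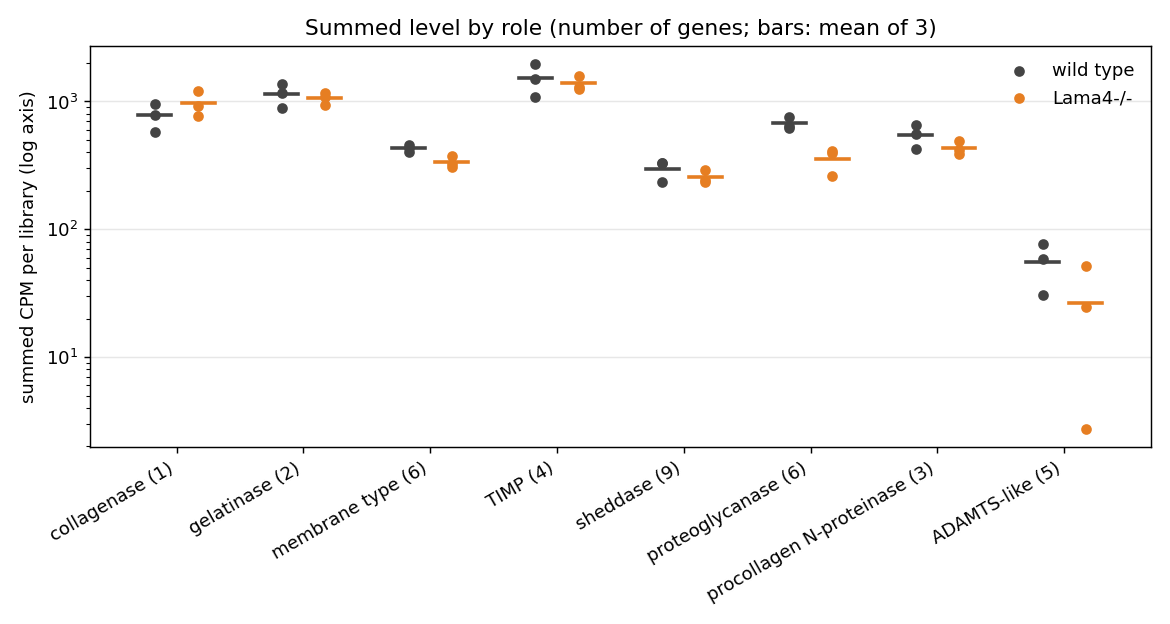
Summed CPM per library (vertical log axis) for the genes of each role, with the number of genes in parentheses, wild type in dark points and Lama4-/- in orange, bars at the mean of 3 libraries. The proteoglycanase sums lie at 624 to 751 CPM in wild type and 263 to 412.5 CPM in Lama4-/-. The membrane-type MMP sums do not overlap either, at 401 to 457 CPM in wild type and 305 to 372 CPM in Lama4-/-. The TIMP, gelatinase and collagenase sums overlap.

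Procollagen N-proteinases remove the N-terminal propeptide of fibrillar collagens. Adamts2, the main one for type I collagen, was at 524, 593 and 412 CPM in wild type and 461, 391 and 364 CPM in Lama4-/-, with overlapping groups and a log2 fold change of -0.33 (SE 0.20; edgeR unadjusted p = 0.142, adjusted p = 0.553). With the length trend removed the sign turned, to 0.48, the transcript having 7266 bases. Adamts3 and Adamts14 were at 8.58 ± 2.98 against 9.95 ± 5.76 CPM and 26 ± 19.4 against 14.4 ± 4.98 CPM (SD, n = 3), both with overlapping groups.

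Adamts10, a protease of fibrillin microfibrils, went the other way from most of the family. It was at 67, 103 and 124 CPM in wild type and 152, 113 and 168 CPM in Lama4-/-, with 1 Lama4-/- value inside the wild type range. The log2 fold change of 0.56 (SE 0.28; edgeR unadjusted p = 0.0796, adjusted p = 0.452) was 0.83 with the length trend removed (edgeR unadjusted p = 0.0224). Its relative Adamts6 was at 4.03 ± 2.14 against 5.09 ± 3.21 CPM (SD, n = 3), with a log2 fold change of 0.34 (SE 0.83) and 1.19 with the length trend removed. Adamts7 and Adamts12, which cut cartilage oligomeric matrix protein, were at 7.89 ± 5.16 against 2.81 ± 3.38 CPM and 6.12 ± 3.65 against 2.41 ± 3.36 CPM. Adamts17 and Adamts18 were at 6.79 ± 1.83 against 4.94 ± 5.09 CPM and 5.2 ± 2.95 against 4.36 ± 5.77 CPM, each at 0 in 1 Lama4-/- library, and Adamts16 was not tested.

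ADAMTS-like proteins share the outer domains of the family, lack the protease domain, and several bind fibrillin microfibrils. Adamtsl1 (punctin; chromosome 4, 85514172 to 86428385, plus strand) was at 8.23, 7.71 and 8.72 CPM in wild type and 2.16, 0.978 and 0.29 CPM in Lama4-/-. The wild type values were close to each other and the highest Lama4-/- value was well below them. The counts behind these values were 110, 45 and 113 in wild type and 36, 13 and 4 in Lama4-/-. The log2 fold change of -2.83 (SE 0.88; edgeR unadjusted p = 0.0133, adjusted p = 0.276) was the most negative among the 49 tested members. It was -1.96 with the length trend removed (edgeR unadjusted p = 0.0497). DESeq2 called Adamtsl1 (adjusted p = 0.02), whereas the authors' deposited table gives a shrunken log2 fold change of -1.78 with an adjusted p of NA. With any library left out it lay between -3.67 and -2.38.

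The other ADAMTS-like genes varied from library to library. Adamtsl2 was at 10.2, 0.856 and 0 CPM in wild type and 0, 12.5 and 0 CPM in Lama4-/-, high in 1 library of each genotype. Adamtsl3 was at 10.2, 20.5 and 5.86 CPM in wild type and 2.52, 15 and 0 CPM in Lama4-/-, and Adamtsl4, whose human counterpart is needed to hold the eye lens, at 20.2, 25.3 and 10.9 CPM in wild type and 7.62, 16 and 1.67 CPM in Lama4-/-. Adamtsl5 was at 12.1 ± 8.92 against 6.76 ± 5.71 CPM (SD, n = 3). Lama4-/- replicate 3 held the lowest value for Adamtsl1, Adamtsl3, Adamtsl4 and Adamtsl5, and the summed level of the 5 genes there was 2.76 CPM, beside 24.5 or more in the other 5 libraries.

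**Figure D5:**
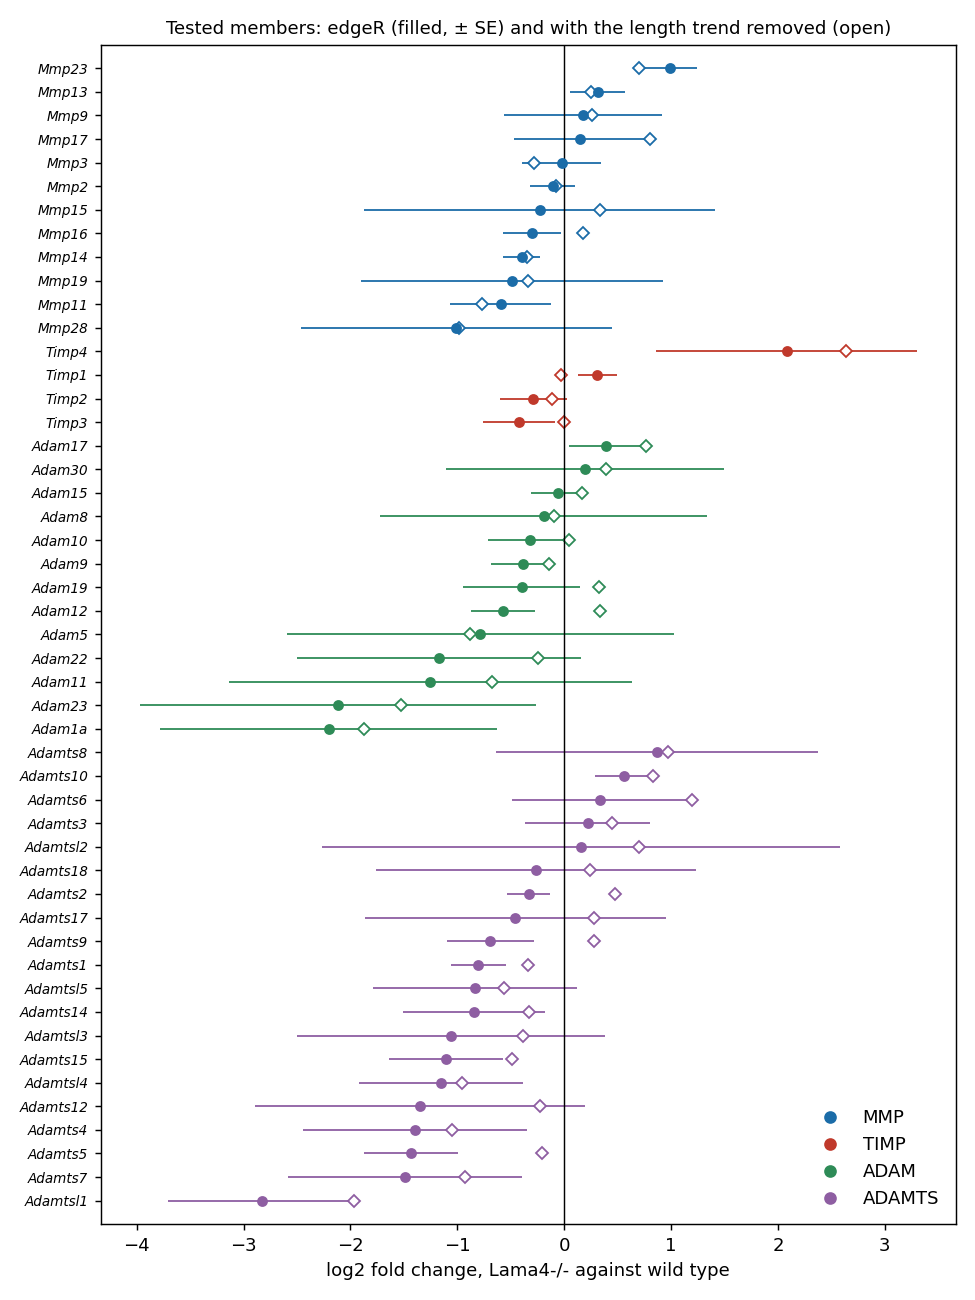
Log2 fold change of Lama4-/- against wild type for the 49 tested members by family, edgeR values as filled circles with ± SE and values with the length trend removed as open diamonds. Most ADAMTS and ADAM circles lie left of 0 and most diamonds lie to their right, while Mmp14, Mmp13 and Mmp2 hardly shift.

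The surroundings of these enzymes were read from 2 lists, of which 0 genes had an edgeR adjusted p under 0.05. Both lists were chosen with earlier results of these data known, so their shares are descriptions. Of 43 listed regulators, receptors and partner proteases, 37 were tested, and at an unadjusted p under 0.05 the lower genes were 4 (10.8%) and the higher 2 (5.41%), beside the 8.34% and 4.45% of all genes. DESeq2 called 2 of 39 lower and 1 higher, beside 3.56% and 1.08% of all genes. Their median log2 fold change was 0.16, and 0.23 with the length trend removed, where 1 was lower (2.7%, beside 3.16% of all genes) and 8 higher (21.6%, beside 4.95%). On the lower side, Lrp1, the receptor that clears MMPs, ADAMTS proteases and TIMPs from the cell surface, was at 667, 585 and 1168 CPM in wild type and 306, 414 and 278 CPM in Lama4-/-. The collagen receptor Mrc2 and the plasminogen activator Plat were at 248 ± 33.9 against 152 ± 28.9 CPM and 49.5 ± 17.4 against 22.9 ± 12.3 CPM (SD, n = 3). With the length trend removed Lrp1 went from -1.28 to 0.05, Mrc2 from -0.70 to -0.083 and Plat from -1.11 to -0.92. On the higher side, basigin (Bsg), known as an inducer of MMPs, was at 537, 579 and 540.3 CPM in wild type and 811, 960.4 and 925 CPM in Lama4-/-, without overlap, and went from 0.70 to 0.41. Tspan17, a tetraspanin that escorts ADAM10, was at 50.9 ± 3.13 against 81.9 ± 27.7 CPM. Of the 8 higher with the length trend removed, Bsg was the only one whose groups did not overlap, and Tspan17 was not among them. The rest of the 8 had main log2 fold changes from 0.15 to 0.28, none with an unadjusted p under 0.05 in the main edgeR test.

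Of 48 listed substrates, 46 were tested, and at an unadjusted p under 0.05 the lower genes were 15 (32.6%, beside 8.34% of all genes) and the higher 0 (beside 4.45%). The list was chosen with earlier results of these data known, so its shares do not test the substrates as a set. It shares genes with the marker lists above, among them Acan, Lepr and Kitl. DESeq2 called 10 of 46 lower and 0 higher, beside 3.56% and 1.08% of all genes. Their median log2 fold change was -0.67, and -0.34 with the length trend removed, where 7 were lower (15.2%, beside 3.16% of all genes). The 4 with the smallest p were the matrix genes Fn1 (-1.62, and -0.70 with the trend removed), Fbn1 (-1.90 and -0.72) and Thbs1 (-1.55 and -0.93), and the IGF-binding protein gene Igfbp5 (-1.50 and -0.86). The substrates' transcripts had a median of 5445 bases. A change in the RNA of a protease or a substrate does not measure proteolysis.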

How the data were processed

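RNA of sorted cells was made into cDNA (SMART-Seq v4) and Nextera XT libraries, read as 75 bp single ends, per the labels' protocols; the kit does not mark strand. The submitters' processing notes name STAR 2.6.1d, featureCounts, Subread and DESeq2 with the builds GRCm38 and mm10. The deposited table has its 2 block headings exchanged. Whole numbers fill 100% of the cells under the normalized heading, and these deposited gene counts were analysed. Under the raw heading stands a deposited signal, each count times 1 factor per library (0.708 to 1.98), not tested here. The other columns are, per the file headers, the authors' DESeq2 Wald test with a beta prior: a mean signal, a log2 fold change with its standard error, a Wald score, a p-value and an adjusted p-value (NA for 15311 genes).

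In R 4.3.3, genes were filtered with filterByExpr by genotype (14465 kept), scaled by TMM and tested with the robust quasi-likelihood test of edgeR 4.0.16 on genotype alone. P-values were adjusted over the whole set of tested genes (Benjamini-Hochberg, threshold 0.05). CPM are counts scaled by the TMM-adjusted totals. DESeq2 1.42.0, limma 3.58.1 voom with quality weights, other scalings and filters, a replicate block, each library left out, and removal of a lowess length trend (span 0.3) were the alternatives. Lengths come from GENCODE M21 (99.9% of gene identifiers matched). Tested on simulated data (13709 genes, 3 against 3), edgeR found 51 of 100 genes with a 4-fold change and 83 of 98 with a 16-fold change, and made 7 false calls. The changed genes were drawn from the more abundant genes only, so recovery of weak genes was not measured. No 2 libraries of a genotype were alike within counting noise (smallest chi-square per gene 42.6).

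The members, lists and tests were chosen with earlier results of these data known. Values in every library are given for the 3 most abundant genes of each family, those with an unadjusted p under 0.05 and those called by DESeq2 or the authors, and for further members chosen after their values were seen. From each list at most 4 genes per direction are named, by smallest p among those with an unadjusted p under 0.05. Some genes of the families and lists are not reported here.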

Additional observations from a re-analysis of the deposited data

How the results depend on the processing

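No member passed the adjusted threshold in the edgeR and limma settings tried, while DESeq2 called 3. The count of lower members at an unadjusted p under 0.05, 3 in the edgeR test, was 7 without a filter (11.9%, beside 7.49% of all genes), 7 with DESeq2 (12.1%, beside 7.38%), 5 with limma voom (10.2%, beside 10.8%), 5 with the replicate block (10.2%, beside 8.92%), and 1 with the length trend removed, without and with the block (2.04%, beside 3.16% and 3.53%). It was 3 to 8 with each library left out (6.12% to 16%, beside 5.15% to 11.5%). The all-gene shares without a filter and with DESeq2 run over 25491 and 25358 genes with no count minimum. Members needed at least 10 counts, so the shares in these 2 settings are not alike. The lower members with DESeq2 include Mmp12 and Mmp25, which were counted in wild type only. The count of higher members, 1, was 2 (4.08%) with upper-quartile scaling (beside 6.83%), limma voom (5.43%), the length trend removed (4.95%) and that with the replicate block (4.83%), and 1 to 3 with each library left out (2% to 6.12%, beside 2.6% to 4.6%). The ADAM median of -0.40 was -0.77 without a filter, -0.81 with DESeq2, -0.90 with limma voom and -0.74 to -0.34 with libraries left out. The ADAMTS median of -0.82 was -1.17 with limma voom, -1.23 with the replicate block, -0.22 with the length trend removed (-0.69 with the block too) and -0.95 to -0.50 with libraries left out. The MMP median of -0.17 was 0.049 with the length trend removed, 0.041 with the block too, and -0.31 to 0.035 with libraries left out. The TIMP median ran from -0.12 to 0.12. Without a filter and with DESeq2 the median of all genes moved by -0.11 and -0.12. Signs turned with the length trend removed, without and with the replicate block, for Adam12 (0.33 and 0.29), Adam15 (0.17 and 0.18), Adamts2 (0.48 and 0.51), Timp1 (-0.029 and -0.041) and Timp3 (0.0012 and 0.092). Adam15 was also at 0.035 with upper-quartile scaling and 0.057 with limma voom. With libraries left out, Adam15 ran from -0.25 to 0.13, Mmp2 from -0.24 to 0.028, Timp2 from -0.53 to 0.021 and Timp3 from -0.68 to 0.0303, each turning without wild type replicate 2; the cause was not tested. The labels share replicate numbers between genotypes but state no pairing. Same-numbered libraries had correlated deviations of 0.04, 0.13 and 0.054, each the highest for its library. The other pairs ran from -0.076 to 0.0075. Whether libraries were paired cannot be told from these values, and the replicate block is given as an alternative. The edgeR filter left out 10 members, each with a mean under 1 CPM. DESeq2 gave 6 of them an adjusted p, the smallest 0.279.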
